A study of Mus musculus with 36 samples.

Results

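The comparison described here set mesenteric lymph nodes of mice given the soluble lymphotoxin-beta receptor for 3 days against nodes of mice given phosphate-buffered saline (PBS). Its members were the samples titled day 3 and day 0, with 3 replicates of each on each of 2 kinds of Affymetrix array (array A and array B). They are 12 of the 36 measurements of the series, whose other groups had the soluble receptor for 1, 2, 27 or 35 days. The soluble receptor is a decoy: it binds the ligands of the lymphotoxin-beta receptor and so keeps them from the receptor on cells. Both groups were total RNA of whole mesenteric lymph node. The sources used here give no strain, sex, age, dose or route. They do not say whether replicates were separate mice, so the p-values reflect only how far these samples spread, which may be technical. PBS is described for day 0 alone and no group given a control protein is described, so that blockade of the ligands, exposure to a foreign protein and day of harvest cannot be told apart.

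Lymphotoxin alpha and beta are made by lymphocytes and signal through the lymphotoxin-beta receptor on stromal and endothelial cells, in large part through the non-canonical NF-kappaB pathway. In the adult lymph node this signal is known to maintain the high endothelial venules, where lymphocytes leave the blood for the node, and the follicular dendritic cells, which hold antigen in B cell follicles and make the chemokine that draws B cells there. In whole-node RNA, fewer cells of a type and less RNA per cell cannot be told apart.

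Each value is the authors' deposited intensity for 1 probe set, a group of short probes that read 1 transcript region. The median intensity of a sample lay between 273 and 291 on array A and between 156 and 163 on array B. Markers of the labelled tissue were bright: the B cell genes Cd79a, Ms4a1 and Cd74 averaged 3408, 2565 and 8537 in PBS samples and 2771, 2392 and 8344 at day 3, and the T cell gene Cd3e averaged 1804 and 1927. Day 3 replicate 3 stood apart from the other 2 day 3 samples on array A. Its root mean square deviation from the group mean was 0.143 (log2, over all tested probe sets) against 0.0927 and 0.0922 for replicates 1 and 2, and it was the farthest of the 3 from the others in 57.9% of probe sets. On array B the deviations were 0.141, 0.11 and 0.151 for replicates 1, 2 and 3. Results are therefore given with and without replicate 3.

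At day 3, 68 of 12231 tested probe sets on array A passed an adjusted p of 0.05 against PBS in limma (0.556% of those tested), 51 of them lower (0.417%) and 17 higher (0.139%). On array B, 10 of 12516 passed (0.0799%), 9 lower (0.0719%) and 1 higher (0.00799%). The named genes with the largest log2 falls were, in order, Glycam1 of high endothelial venules, desmocollin 3 (Dsc3, on array B), Mfge8 of follicular dendritic cells, the decoy cytokine receptor Il22ra2, the glycosyltransferase Ogt and the B cell chemokine Cxcl13. The fall of Ogt was on 1 probe set, and its 4 other tested probe sets were not called. The gene that rose most was the matrix proteoglycan lumican (Lum). In all 78 called probe sets the 3 day 3 values and the 3 PBS values did not overlap, which held for 16.0% of all those tested on array A and 16.2% of those on array B. An unadjusted p under 0.05 was reached by 1236 on array A (10.1%) and 1036 on array B (8.28%). The median log2 change over all tested probe sets was 0.019 on array A and -0.004 on array B.

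High endothelial venule genes had the median farthest from 0 of the 28 gene lists. Of 19 genes listed for these vessels, 10 had a tested probe set that names them alone, of which 4 fell and none rose, with a median log2 change of -0.425 against 0.016 over 12395 genes with 1 probe set each. Over all those genes, 0.177% were called lower. The 28 lists were chosen with earlier results of these data known, so contrasts with all genes, here and below, are descriptions only. Glycam1 encodes the mucin-like glycoprotein that carries sugar ligands for L-selectin on lymphocytes. Its intensity was 5239, 6627 and 5555 in PBS replicates 1, 2 and 3, and 1640, 2244 and 1980 in day 3 replicates 1, 2 and 3. Every day 3 sample lay below every PBS sample, with means of 1954 ± 303 and 5807 ± 727 (SD, n = 3 each). The log2 change was -1.58 (SE 0.117, limma adjusted p = 6.93e-07), and -1.59 without replicate 3.

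Madcam1, the vascular addressin that binds the gut-homing integrin of lymphocytes, read 736.1, 826.4 and 632 in PBS samples and 464.9, 435.1 and 372.4 at day 3. The groups did not overlap, and replicate 3 was the lowest of the day 3 samples. The change was -0.78 (SE 0.101, limma adjusted p = 0.000609), and -0.69 with an adjusted p of 0.00618 without replicate 3. Ubd, a ubiquitin-like modifier induced by inflammatory cytokines and present in these vessels, read 688, 762.6 and 767.9 in PBS samples and 424.4, 518.8 and 444.3 at day 3, again without overlap. It fell by 0.68 on the log2 scale (SE 0.114, limma adjusted p = 0.00809). Its call ended without PBS replicate 3 or day 3 replicate 1 (highest adjusted p 0.0567) and remained without replicate 3 (adjusted p = 0.0472).

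Cd300lg, a mucin-like glycoprotein of capillary and venular endothelium, read 458.1, 410.3 and 363.7 in PBS samples and 281.1, 279.8 and 215 at day 3 on array B. Replicate 3 was the lowest of the 6 samples. The change was -0.67 (SE 0.114, limma adjusted p = 0.0316), and without replicate 3 it was -0.54 with an adjusted p of 0.152. Leaving out replicate 2, PBS replicate 1 or PBS replicate 2 also ended the call. The other vessel genes tested did not pass. Gcnt1, a glycosyltransferase that builds selectin ligands, read 275.6, 247.4 and 245.6 in PBS samples and 156.4, 130.9 and 200.5 at day 3 (log2 change -0.68, limma adjusted p = 0.512). Fut7, the fucosyltransferase of the same pathway, stood at -0.18, and Chst2, a sulfotransferase of that pathway, at -0.11. Ackr1, the atypical chemokine receptor of venules, stood at 0.01, Nkx2-3, a transcription factor needed for Madcam1 expression, at 0.15, and Podxl, a sialomucin of endothelium, at 0.11. The list of blood endothelial genes had 1 called member of 15 tested, Cd300lg, against 0.177% of all genes called lower. Its median change was 0.066.

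**Figure D1:**
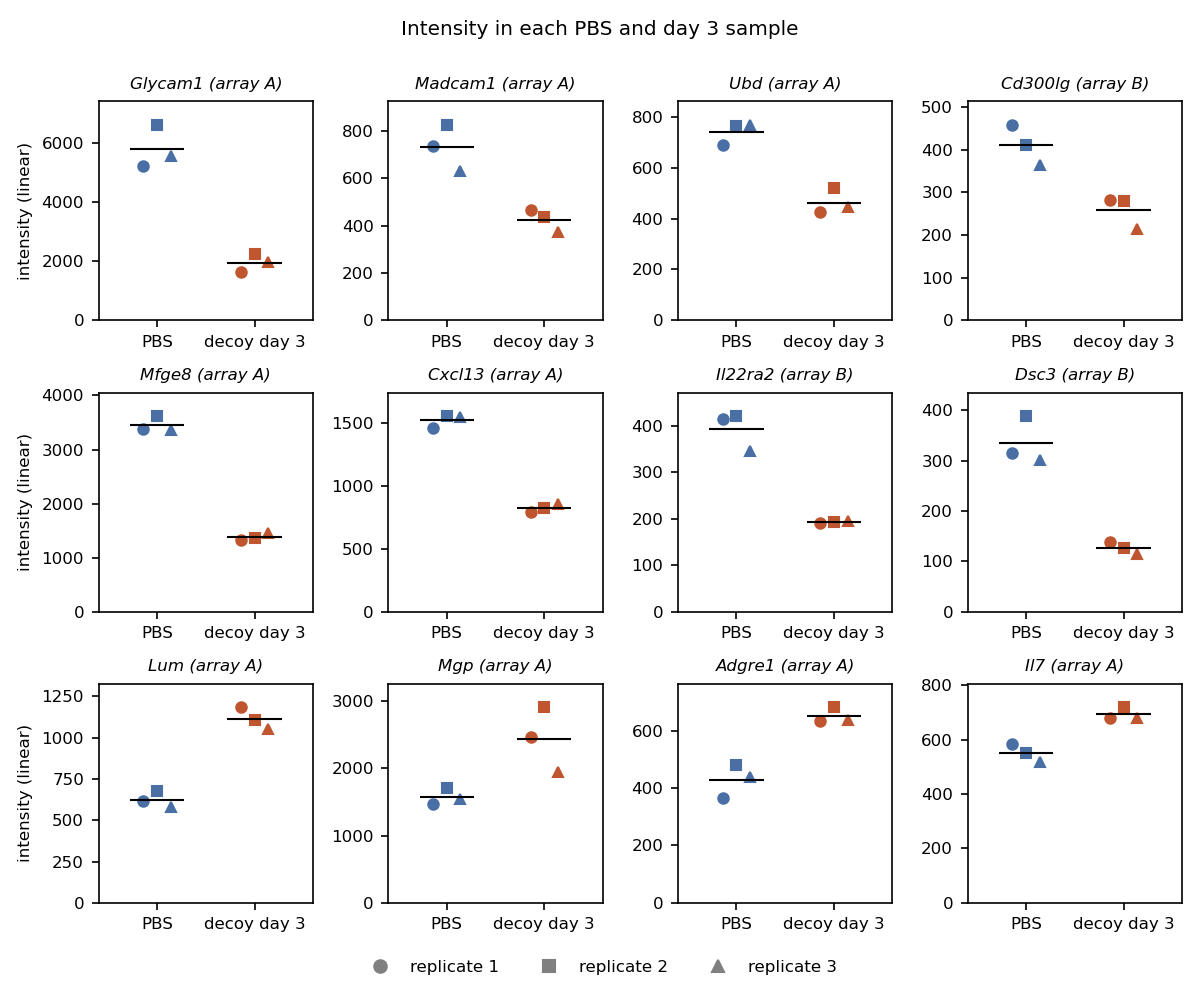
Intensity of 12 genes called at day 3 in each PBS and day 3 sample. Each panel is 1 probe set with its own linear vertical axis in intensity units, the marker shape gives the replicate number (circle 1, square 2, triangle 3) and the bar is the group mean. In each panel the 3 day 3 samples lie on the same side of the 3 PBS samples. Glycam1 drops from between 5239 and 6627 to between 1640 and 2244.

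Promoters of 5 vessel and follicular dendritic cell genes that fell are printed because NF-kappaB lies downstream of the lymphotoxin-beta receptor. Ubd was shown for its match, so the share with a match among the 5 says nothing. Each is the RefSeq sequence of GRCm38.p6 from 250 bases before to 50 bases after the annotated start, read 5′ to 3′ on the gene's strand. Capitals mark matches, on either strand, to the NF-kappaB consensus decamer.
Madcam1 (chr10:79664309-79664608, + strand): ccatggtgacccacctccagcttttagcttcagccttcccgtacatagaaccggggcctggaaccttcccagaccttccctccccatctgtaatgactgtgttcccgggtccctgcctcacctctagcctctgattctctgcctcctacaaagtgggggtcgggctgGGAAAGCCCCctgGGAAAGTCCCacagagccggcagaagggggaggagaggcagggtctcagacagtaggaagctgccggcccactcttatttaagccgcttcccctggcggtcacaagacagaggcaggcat
Ubd (chr17:37193642-37193941, + strand): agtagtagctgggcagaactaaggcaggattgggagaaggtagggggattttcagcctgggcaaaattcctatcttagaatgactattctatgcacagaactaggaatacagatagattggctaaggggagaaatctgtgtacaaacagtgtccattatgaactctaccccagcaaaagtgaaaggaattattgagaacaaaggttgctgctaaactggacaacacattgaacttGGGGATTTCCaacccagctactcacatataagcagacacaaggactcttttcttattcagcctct
Glycam1 (chr15:103565032-103565331, - strand): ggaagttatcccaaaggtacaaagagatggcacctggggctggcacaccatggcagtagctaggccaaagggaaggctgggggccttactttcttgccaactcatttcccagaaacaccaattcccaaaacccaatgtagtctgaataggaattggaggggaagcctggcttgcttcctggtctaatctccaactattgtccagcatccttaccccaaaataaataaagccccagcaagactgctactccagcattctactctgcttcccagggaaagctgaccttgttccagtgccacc
Mfge8 (chr7:79149011-79149310, - strand): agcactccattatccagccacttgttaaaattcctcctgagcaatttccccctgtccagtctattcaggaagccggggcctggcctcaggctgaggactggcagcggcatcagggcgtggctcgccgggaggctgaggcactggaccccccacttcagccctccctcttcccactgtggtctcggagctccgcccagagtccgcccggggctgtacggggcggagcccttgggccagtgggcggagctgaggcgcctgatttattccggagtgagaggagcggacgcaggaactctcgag
Cxcl13 (chr5:95956689-95956988, + strand): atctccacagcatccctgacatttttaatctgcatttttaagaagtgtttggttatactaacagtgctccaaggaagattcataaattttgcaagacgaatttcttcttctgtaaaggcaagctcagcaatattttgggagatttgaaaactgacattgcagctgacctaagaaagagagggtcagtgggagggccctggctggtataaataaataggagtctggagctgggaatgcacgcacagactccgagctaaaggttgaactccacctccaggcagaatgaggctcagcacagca

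Madcam1 held 2 matches, from 83 to 74 and from 70 to 61 bases before the start, both on the minus strand of the gene. Ubd held 1 match on the plus strand, from 15 to 6 bases before the start. The windows of Glycam1, Mfge8 and Cxcl13 held none, which says only that these letters are not in the window. Among all RefSeq genes with such a window, 5.14% (1388 of 27025) held a match. Of the 47 genes with a probe set called lower at day 3, 33 had a window and 5 of these held a match (15.2%): Madcam1, Ubd, Nfkbia, Pglyrp1 and Ifngr2. Of the 17 genes called higher, 6 had a window and 0 held a match. These counts describe letters in the genome and were not tested against other genes.

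Among follicular dendritic cell genes, Mfge8, Cxcl13 and Madcam1 fell, 3 of the 12 tested of 20 listed, with none higher, against 0.177% of all genes called lower, and a list median of -0.158. Madcam1 stands in this list as well because stromal cells of the follicle margin express it. Mfge8 encodes the secreted protein that tags dying cells for uptake by phagocytes. It read 3372, 3621 and 3354 in PBS samples and 1320, 1369 and 1452 at day 3, a drop in every sample far beyond the spread within either group (means 3449 ± 149 and 1380 ± 66.6, SD, n = 3 each). The log2 change was -1.32 (SE 0.107, limma adjusted p = 1.59e-06), and -1.36 without replicate 3, which was the highest of the 3 day 3 samples.

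Cxcl13, the chemokine that recruits B cells to follicles through the receptor Cxcr5, had 2 called probe sets. The first read 1455, 1554 and 1549 in PBS samples and 789.1, 819.7 and 852.6 at day 3. The second read 1574, 1388 and 1408 in PBS samples and 906.8, 925.5 and 906.7 at day 3. The groups did not overlap on either, and the day 3 samples lay close together. The changes were -0.89 (SE 0.108, limma adjusted p = 0.000273) and -0.67 (SE 0.094, limma adjusted p = 0.00118), and -0.92 and -0.67 without replicate 3. Cxcr5 itself stood at 0.13 (limma adjusted p = 0.759), a value that rested on replicate 3: the day 3 samples read 524.7, 504.2 and 734.1, and without replicate 3 the change was -0.04.

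Other genes of these cells moved less or did not pass. Clu, the chaperone clusterin, had 1 probe set that fell by 0.42 on the log2 scale (limma adjusted p = 0.0357), from 2926, 3252 and 3072 to 2215, 2326 and 2371. Its other 3 probe sets stood at -0.30, -0.32 and -0.34 and did not pass. Fcer2a, the low-affinity IgE receptor of B cells and follicular dendritic cells, had a called probe set at -0.33 (limma adjusted p = 0.0433) beside a brighter one at 0.05. The calls of Clu and Fcer2a each ended when any 1 of the 6 samples was left out (highest adjusted p 0.158 and 0.188). Cr2, the complement receptor that holds antigen on these cells and is shared with B cells, stood at -0.16 (adjusted p = 0.575). The adhesion molecules Vcam1 and Icam1 stood at -0.02 and 0.04, and the prion protein gene Prnp at -0.15.

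Beyond Cxcl13, no homeostatic chemokine or receptor passed among the 10 tested (median 0.064), while 0.177% of all genes were called lower and 0.121% higher. Ccl19 and Ccl21a, the T zone chemokines, were read only by probe sets that other genes share, and are not analysed here. Cxcl12, a stromal chemokine, read 2347, 2606 and 2422 in PBS samples and 3338, 3221 and 3429 at day 3. The groups did not overlap and the change was 0.44, yet the limma adjusted p was 0.159, and 2 further probe sets stood at 0.18 and 0.045. Its receptor Cxcr4 averaged 760 in PBS samples and 498.2 at day 3 (log2 change -0.62, adjusted p = 0.155). Ccr7, the receptor that guides cells to the T zone, stood at 0.12, Ccr6 at 0.20 and Cxcr3 at 0.31 (adjusted p of 0.759, 0.325 and 0.2).

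On array B the largest fall belonged to Dsc3, a cadherin of desmosomes, the junctions that rivet epithelial cells and some stromal cells together. It read 314.7, 389 and 301.2 in PBS samples and 138.5, 125.7 and 115.4 at day 3. The 3 day 3 values were all under the lowest PBS value, with replicate 3 lowest. The log2 change was -1.40 (SE 0.146, limma adjusted p = 0.000177), and -1.33 without replicate 3. A separate probe set on array A read 328.5, 279.5 and 277 in PBS samples and 181, 198 and 165.8 at day 3, a change of -0.70 (SE 0.0957, limma adjusted p = 0.00103). It exceeded the filter's median of 286.7 only in PBS replicate 1 and day 35 replicates 1 and 2 (328.5, 307.8 and 328.6). Being tested only through samples where it is high by itself favours a fall at day 3, so it adds little to the array B result. Dsc3 was the single gene called on array A that was called on array B as well, out of 13 such genes with a tested probe set there. By the brightest probe set on array B, 11 of those 13 had the same sign as on array A.

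Dsg2, a desmoglein that pairs with desmocollins, had 1 probe set that fell from 313.7, 340.3 and 330.9 to 227.3, 212.1 and 209.4 (log2 change -0.60, limma adjusted p = 0.0108). That probe set exceeded 286.7 only in PBS and day 35 samples, which by itself favours a fall at day 3. The other 2 probe sets of Dsg2 stood at -0.17 and -0.43 and did not pass, and without replicate 3 the adjusted p of the called one was 0.0532. Of 8 tested desmosome genes 1 was called by its brightest probe set, Dsc3, against 0.177% of all genes called lower. The list median was -0.072. The plaque proteins Jup and Pkp3 stood at -0.11 and -0.04 and the linker protein periplakin (Ppl) at 0.00.

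Il22ra2, a soluble receptor that neutralises interleukin 22, read 415.1, 421.3 and 346.6 in PBS samples and 190.1, 192.3 and 194.2 at day 3. The day 3 samples were nearly level with each other and all below the PBS samples. The log2 change was -1.03 (SE 0.136, limma adjusted p = 0.00283), and -1.04 without replicate 3. Pik3ip1, an inhibitor of phosphoinositide 3-kinase, read 570, 585.2 and 598.2 in PBS samples and 352.8, 331.4 and 372.1 at day 3 (log2 change -0.73, limma adjusted p = 0.00867), while its other probe set stood at -0.40 and did not pass. The call of Pik3ip1 remained without replicate 3 (adjusted p = 0.0297) and ended without replicate 2, PBS replicate 2 or PBS replicate 3 (highest adjusted p 0.0914). Slco2b1, an organic anion transporter, fell by 0.57 on the log2 scale from 751.1, 826.1 and 753.1 to 532.9, 478.8 and 564.9 (adjusted p = 0.0316). Its 2 other probe sets stood at -0.28 and 0.17. Med13l, a subunit of the Mediator complex, had 1 called probe set at -0.46 and another at -0.15. The one rise on array B was that of the predicted gene Gm38440, from 149.2, 192.2 and 189.7 to 260.2, 295.2 and 299.2 (log2 change 0.69, adjusted p = 0.0316). The calls of Slco2b1, Med13l and Gm38440 each ended when any 1 of the 6 samples was left out (highest adjusted p 0.345, 0.345 and 0.322).

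By their brightest probe sets, the receptor, its ligands and the proteins that relay its signal did not pass the test's threshold. A dimmer probe set of Nfkbia did, as given below. None of the 20 tested genes of the lymphotoxin and NF-kappaB list was called by its brightest probe set, against 0.299% of all genes. With so low a share over all genes, the absence of calls among 20 says little about the pathway. Of the 20, 3 had an unadjusted p under 0.05, and the list median was 0.044. Ltbr, the receptor itself, read 747.5, 680.3 and 492.1 in PBS samples and 671.9, 683.4 and 567.7 at day 3. The groups overlapped fully (log2 change 0.02, limma adjusted p = 0.983). Without replicate 3 it stood at 0.10. Ltb, the membrane-anchored ligand subunit, read 1992, 2089 and 1595 in PBS samples and 1811, 1978 and 2316 at day 3 (0.11, adjusted p = 0.805), with replicate 3 highest and a change of 0.01 without it. Lta, the other ligand subunit, averaged 321.2 and 300.4 (log2 change -0.09, and 0.01 without replicate 3), and Tnf, a cytokine of the same family, 441.4 and 432.3.

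Downstream, Map3k14, the kinase that starts the non-canonical pathway, stood at 0.03. Nfkb2, whose product that pathway processes, averaged 835.1 in PBS samples and 721.4 at day 3 (log2 change -0.22, limma adjusted p = 0.467). Relb, its partner subunit, stood at 0.06 and Rela, a subunit of the canonical pathway, at 0.21 (adjusted p = 0.451). Nfkbia encodes the inhibitor IkappaB alpha, whose own gene NF-kappaB induces. Its brightest probe set stood at -0.05, while a dimmer one fell from 1973, 2123 and 2218 to 1652, 1782 and 1562 (log2 change -0.34, limma adjusted p = 0.0489). Leaving out any 1 of the 6 samples ended that call (highest adjusted p 0.274). The ligand gene Tnfsf14 was too dim to test, and Chuk, Nfkb1 and Traf3 had no probe set that names them alone.

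Among matrix genes, the clearest change was a rise of Lum. Of 37 tested genes of the extracellular matrix and fibroblast list, 3 rose and none fell by the brightest probe set, against 0.121% called higher over all genes with 1 probe set each. The list median was 0.15, and 28 of the 37 had a positive change. Lum, a small leucine-rich proteoglycan that binds collagen fibrils, read 616.6, 678.1 and 582.1 in PBS samples and 1185, 1107 and 1051 at day 3. The lowest day 3 sample lay well above the highest PBS sample (means 1114 ± 67.3 and 625.6 ± 48.7, SD, n = 3 each). The log2 change was 0.83 (SE 0.0949, limma adjusted p = 0.000131). Lum was the single rise that remained whichever of the 6 samples was left out.

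Mgp, matrix Gla protein, which inhibits calcification, read 1463, 1708 and 1539 in PBS samples and 2472, 2909 and 1948 at day 3. Replicate 3 had the smallest rise of the 3. The change was 0.62 (SE 0.123, limma adjusted p = 0.0279) with replicate 3 and 0.78 (adjusted p = 0.00471) without it. Col14a1, a collagen that associates with fibrils, rose from 428, 542.4 and 448.3 to 690.5, 720.5 and 642.3 (0.54, adjusted p = 0.0279). Its 2 other probe sets stood at 0.31 and 0.215, and without replicate 3 the adjusted p was 0.0545. Fmod, fibromodulin, a relative of lumican, went the other way: 2 of its dimmer probe sets fell, by 0.55 and 0.46 on the log2 scale (limma adjusted p of 0.0195 and 0.0296), while its brightest stood at -0.185. Col3a1, a fibrillar collagen chosen after its values were seen, stood at 0.60 with an adjusted p of 0.0531.

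Other rises with a tie to stroma or matrix were small. Igf1, an insulin-like growth factor, rose from 581.3, 564.6 and 540.4 to 750.2, 823.3 and 757 (log2 change 0.47, limma adjusted p = 0.0279), and its 3 other probe sets stood between 0.26 and 0.34. Vtn, the adhesive plasma protein vitronectin, had 2 called probe sets, at 0.43 and 0.38. Mmp2, a gelatin-degrading protease, rose by 0.36 on 1 probe set, with a second at 0.35 that did not pass. The calls of Igf1, Mmp2 and the lower of the Vtn values ended in each of the 6 omissions of 1 sample (highest adjusted p 0.148, 0.15 and 0.192), and the other Vtn call remained only without PBS replicate 2. Il7, the interleukin that fibroblastic reticular cells supply to T cells, read 585, 551.8 and 519.4 in PBS samples and 680.4, 719.5 and 679.4 at day 3. The groups did not overlap (0.33, SE 0.0672, limma adjusted p = 0.0296), and the call remained only without PBS replicate 1 (highest adjusted p 0.174, and 0.0855 without replicate 3). It was the 1 called gene of the 12 tested for fibroblastic reticular cells, against 0.121% of all genes called higher. The median of that list was 0.04.

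Macrophage genes moved in both directions. Of 24 tested, Adgre1, Clec4n and Slc40a1 rose and Lyz2 fell, against 0.121% of all genes called higher and 0.177% called lower, with a list median of 0.184. Adgre1, which encodes the macrophage surface protein F4/80, read 364.9, 479.2 and 437.1 in PBS samples and 632.9, 682.2 and 636.2 at day 3. Slc40a1, the iron exporter ferroportin, read 364, 452.6 and 472.5 in PBS samples and 644.5, 719.2 and 657.5 at day 3. In both genes every day 3 sample exceeded every PBS sample. Their changes were 0.61 (SE 0.126, limma adjusted p = 0.0296) and 0.66 (SE 0.139, adjusted p = 0.0364). The second probe set of Slc40a1 stood at 0.25.

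Clec4n, the fungal-recognition receptor Dectin-2, rose by 0.35 on the log2 scale (limma adjusted p = 0.0279). Lyz2, the lysozyme of myeloid cells, read 5762, 5733 and 5933 in PBS samples and 4576, 4361 and 4653 at day 3, a change of -0.36 (SE 0.0625, adjusted p = 0.0108). Its call remained without replicate 3 (adjusted p = 0.0249) and ended without replicate 2 or PBS replicate 3. The rises of Adgre1, Slc40a1 and Clec4n lost their call without replicate 3, at adjusted p of 0.101, 0.123 and 0.101, though their changes were 0.63, 0.67 and 0.34. Leaving out other samples ended them too: Slc40a1 and Clec4n in each of the 6 omissions and Adgre1 in all but that of PBS replicate 2. Timd4, through which resident macrophages bind dying cells, stood at -0.53 on array B without passing (adjusted p = 0.313) and was chosen after its values were seen.

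Fscn1, the actin-bundling protein fascin of mature dendritic cells, rose on 1 probe set from 1472, 2017 and 1603 to 2216, 2545 and 2920 (log2 change 0.60, limma adjusted p = 0.0431), with replicate 3 highest. Its 3 other probe sets stood between -0.05 and -0.01, and without replicate 3 the change was 0.50 with an adjusted p of 0.252. Egr1, an immediate early transcription factor, rose from 524.9, 579.9 and 518.1 to 708.5, 702.8 and 683 (0.37, adjusted p = 0.0191), a call that remained without replicate 3 (adjusted p = 0.049) and ended without replicate 1, replicate 2, PBS replicate 1 or PBS replicate 3 (highest adjusted p 0.116). The ubiquitin ligase gene Wwp1 rose from 346.2, 336.8 and 284.9 to 396.1, 404.3 and 502.5 (limma adjusted p = 0.0457), and replicate 3 was the highest by a wide margin. Without it the change fell to 0.32 with an adjusted p of 0.26. Gyg, which primes glycogen synthesis, Nabp1, a single-stranded DNA binding protein, and Ctsw, a protease of cytotoxic lymphocytes, rose by 0.46, 0.36 and 0.36. On array B, another probe set of Gyg stood at 0.11 and those of Nabp1 between -0.07 and 0.11, none of them called. The calls of Wwp1, Gyg and Ctsw ended in each of the 6 omissions, with highest adjusted p of 0.283, 0.252 and 0.212. That of Nabp1 remained only without replicate 3 (highest adjusted p 0.163).

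Markers of neighbouring tissue and of the main lymphocyte classes gave no calls by brightest probe set. Since 0.299% of all genes were called in either direction, that absence says little about these lists. The 17 tested adipocyte genes had a median of -0.101 and a summed intensity of 48146 to 52383 in PBS samples and 45166 to 48524 at day 3. Of 14 intestinal genes 4 were bright enough to test (median 0.106), and the 3 of them on array A summed to 951 to 1210 in PBS samples and 1169 to 1348 at day 3. Of 14 pancreas genes 4 were tested (median -0.013), and 6 erythroid genes had a median of 0.075. The absorptive and goblet cell markers Vil1 and Muc2 stayed at or below 131 and 135 in every PBS and day 3 sample, under the filter. The part of fat or gut around the node in the called changes was not tested. B cell genes (18 tested, median -0.027) and T cell genes (15 tested, median -0.031) were close to the median of all genes.

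Several large falls rested on 1 probe set of a gene with others that did not move. Ogt, the enzyme that attaches N-acetylglucosamine to proteins in nucleus and cytoplasm, had a probe set that read 970.1, 850.8 and 893.4 in PBS samples and 501, 504.8 and 400.1 at day 3. The groups lay far apart and replicate 3 was lowest. The log2 change was -0.96 (SE 0.131, limma adjusted p = 0.00103), and -0.85 (adjusted p = 0.0104) without replicate 3. Its 4 other tested probe sets stood between 0.03 and 0.20. Foxp1, a transcription factor of lymphocyte development and quiescence, had a probe set that read 379.3, 401.1 and 386.4 in PBS samples and 243.8, 220.9 and 232.9 at day 3 (-0.74, SE 0.0832, adjusted p = 0.000129). A second fell by 0.44 on the log2 scale (adjusted p = 0.0191), and 6 more stood between -0.33 and 0.04 and did not pass.

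Septin1, a cytoskeletal GTPase with 1 tested probe set, read 943.9, 829.8 and 885.2 in PBS samples and 514, 543.5 and 539.6 at day 3. Its day 3 values lay within a narrow band below all PBS values (-0.73, SE 0.0784, limma adjusted p = 8.41e-05, and -0.74 without replicate 3). Actn1, the actin cross-linker alpha-actinin 1, fell from 1112, 1183 and 1188 to 833, 848.3 and 707.3 on 1 probe set (-0.55, adjusted p = 0.00103), with others at -0.01 and -0.15. Kdm5c, a histone demethylase, fell from 375.1, 415.4 and 428.9 to 299.8, 312.2 and 240.9 on 1 probe set (-0.52, adjusted p = 0.0191). Replicate 3 was its lowest sample, 6 probe sets on array B stood between -0.27 and -0.03, and without replicate 3 the adjusted p was 0.0998. Over the 47 genes with a call lower, 14 had 1 tested probe set and 33 had more. In 4 of those 33 (Cxcl13, Dsc3, Fmod and Foxp1) more than 1 probe set was called. In 25 of the 33 the brightest probe set was not called.

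The remaining large falls named on array A were in Pglyrp1, Gsta3, Rgcc, Snhg6 and Csf2rb. Pglyrp1, a peptidoglycan-binding antibacterial protein, read 421.4, 397.8 and 389.9 in PBS samples and 260.9, 269.5 and 218.6 at day 3, without overlap (-0.70, SE 0.102, limma adjusted p = 0.00195). Gsta3, a glutathione transferase, fell from 433.4, 427.7 and 421.3 to 266.3, 301.3 and 249.4 (adjusted p = 0.031). Rgcc, a regulator of the cell cycle, fell from 469.3, 460.3 and 460.1 to 268.3, 338.4 and 330.3 (adjusted p = 0.0465), and its call, like that of Gsta3, ended when any 1 of the 6 samples was left out (highest adjusted p 0.201 and 0.164). The noncoding RNA Snhg6 read 415.7, 434.5 and 548.5 in PBS samples and 345, 334.9 and 244.2 at day 3, with replicate 3 far below the other 2 (-0.60, adjusted p = 0.0279). Without replicate 3 its change was -0.44 with an adjusted p of 0.137. Csf2rb, the shared receptor chain for interleukins 3 and 5 and GM-CSF, fell by 0.55 on the log2 scale (adjusted p = 0.0191), beside a probe set on array B at -0.28. Its call ended without replicate 1, replicate 3, PBS replicate 2 or PBS replicate 3 (highest adjusted p 0.108).

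The question of whether replicate 3 drives a change was put to each call by fitting without it. On array A, 27 probe sets were then called (0.221%), 21 lower (0.172%) and 6 higher (0.0491%), of which 25 were among the 68. The ratio of the change without replicate 3 to that with all samples ran from 0.737 to 1.247 with a median of 0.981. Because the groups of each called probe set do not overlap, no omission of 1 sample could turn a sign, and the signs therefore say nothing about replicate 3. The loss of calls was of the same order for the other samples: without replicate 1 or 2, 25 and 26 of the 68 remained, and without PBS replicates 1, 2 or 3, 28, 27 and 16. On array B, 4 of the 10 calls remained without replicate 3, 5 without replicate 1 and 3 without replicate 2.

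**Figure D2:**
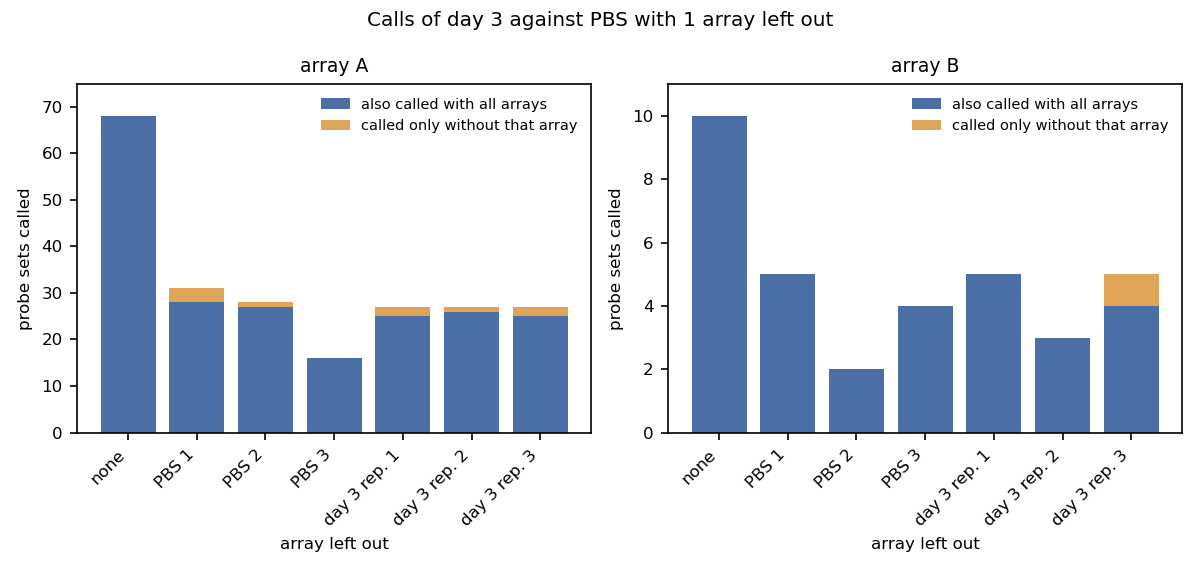
Number of probe sets called against PBS (vertical axis, from 0) when each of the 6 samples is left out in turn, for array A and array B. The first bar holds all samples, and each stack separates probe sets also called with all samples from those called only without that one. Array A falls from 68 calls to between 16 and 31 whichever sample is left out.

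Replicate 3 was the farthest of the day 3 samples in 30 of the 68 called probe sets on array A (44.1%), against 57.9% of all tested ones. On array B it was the farthest in 1 of the 10, against 38.7% of all tested ones. A call favours a small spread within groups, which by itself lowers the share of the most deviant sample. These shares are therefore a description only. Replicate 3 had the largest change in 33 of the 68 (48.5%), against 51.5% of all tested on array A. Of these 33, 28 were among the 51 that fell. Replicate 2 had the largest in 9 of the 17 that rose, against 24.2% of all tested in either direction. The shares of all tested take rises and falls together, so they give no base for rises or falls alone. Among day 3 samples, leaving out replicate 3 alone ended the calls of 4 genes, Kdm5c, Mark2, Serpina10 and Snhg6, of which Mark2 and Serpina10 fall outside the naming rule and were chosen after their values were seen. In the opposite direction, 6 probe sets remained called without replicate 3 but not without replicate 1 or 2. They belong to Egr1, Fmod, Mgp, Nabp1 and Tex261, the last named after its values were seen.

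Whichever of the 6 samples was left out, 15 of the 68 calls on array A and 2 of the 10 on array B remained. Among them were Glycam1, Madcam1, Mfge8, both probe sets of Cxcl13, Dsc3 on both arrays, Il22ra2, Lum, Ogt, Foxp1, Septin1, Actn1 and Pglyrp1. Another 23 calls on array A, and 4 on array B, ended in each of the 6 omissions. With each sample weighted by its fit to its group, replicate 3 had the lowest weight of the 6 on array A (0.277, against 1.76 and 1.91 for replicates 1 and 2), and all 68 calls remained among 224. A set of 100 probe sets is printed on both arrays. Over these, the deviation of a day 3 sample from its group mean on array A correlated with that on array B at 0.565 for replicate 3, 0.557 for replicate 2 and 0.277 for replicate 1 (Pearson, across probe sets, which are not independent). Replicate 1 on array A correlated more with replicate 2 on array B (0.458) than with its own number, and replicate 2 with replicate 1 at 0.223. The pairs of replicate 3 with another number ran from -0.588 to -0.288. The 3 deviations of a group sum to 0, which by itself draws unlike numbers below 0.

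**Figure D3:**
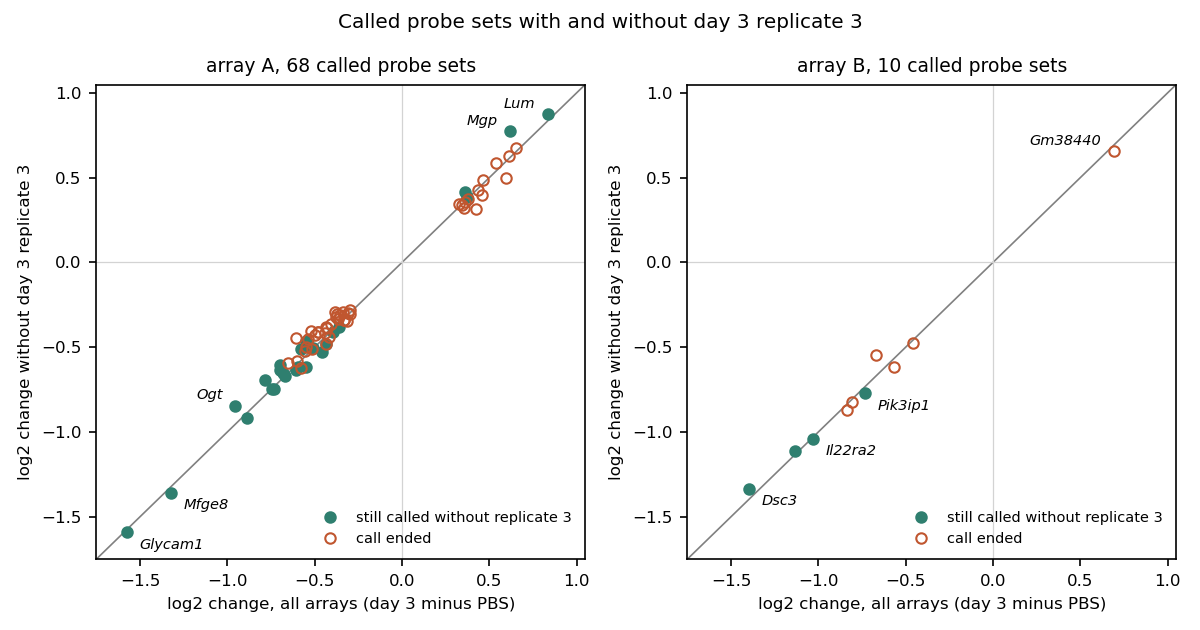
Log2 change from PBS of each called probe set with all samples (horizontal axis) and without day 3 replicate 3 (vertical axis), on array A and array B. Filled markers are still called without replicate 3, open markers are not, and the diagonal marks equal values. On array A the ratio of the 2 values lies between 0.737 and 1.247. No sign could turn, since the groups of each called probe set do not overlap.

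By gene list, replicate 3 lay close to the other 2 samples for the vessel genes, with medians of -0.363, -0.36 and -0.317 in replicates 1, 2 and 3, and for follicular dendritic cell genes, with -0.202, -0.09 and -0.174. The matrix list gave 0.104, 0.156 and 0.161 and the macrophage list 0.156, 0.18 and 0.151. It differed most for the small subunits of the respiratory chain, of which 45 were tested, none was called and 6 had an unadjusted p under 0.05. Their medians were -0.024, 0.055 and -0.364, and their summed intensity was 63263 in replicate 3 against 78776 and 82975 in replicates 1 and 2 and 79301 to 82264 in PBS samples. The fitted list median of -0.12 became 0.01 without replicate 3. Interferon response genes (29 tested, none called) had medians of 0.075, 0.075 and 0.247, and cell cycle genes (24 tested, none called) 0.058, 0.019 and 0.168. Over all genes the medians were 0.012, 0.041 and -0.003.

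**Figure D4:**
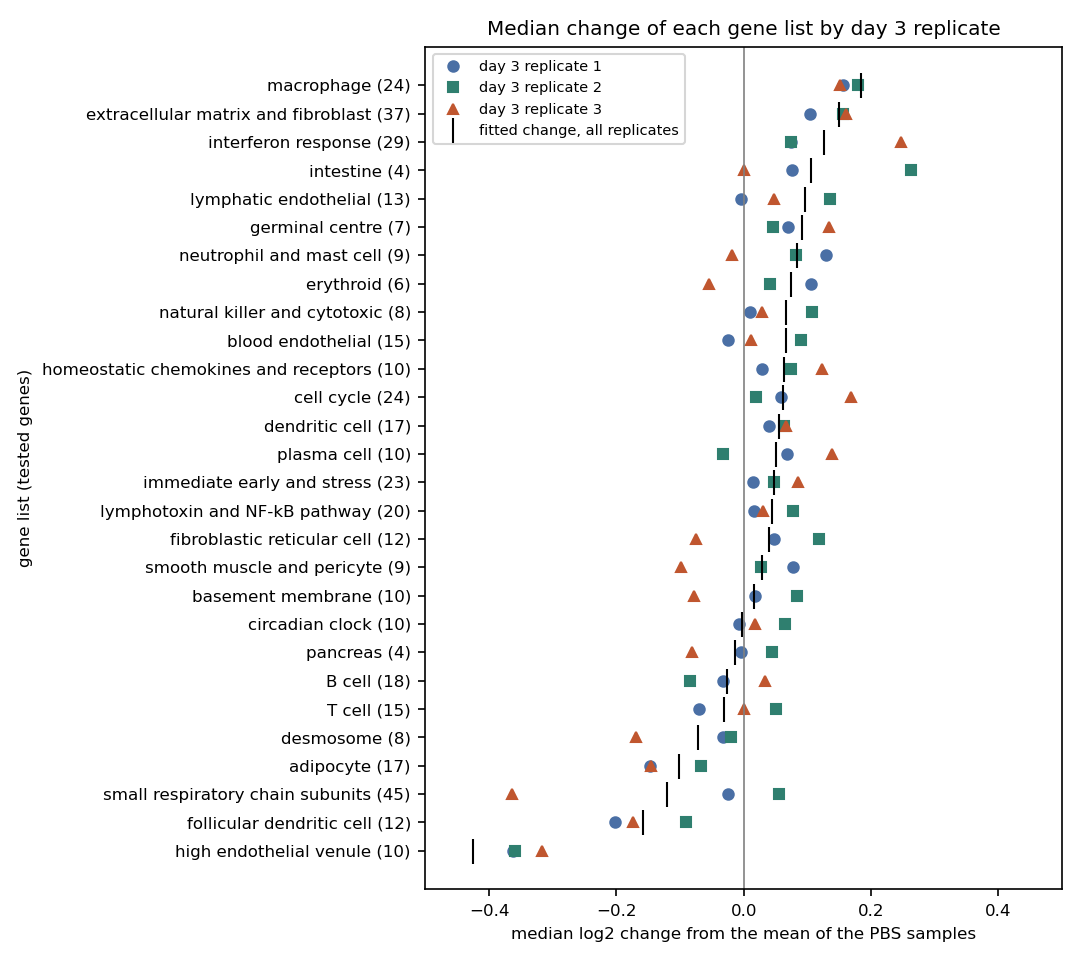
Median log2 change from the mean of the PBS samples (horizontal axis) for each of 28 gene lists, with the number of tested genes in brackets. Markers are the 3 day 3 replicates and the bar is the fitted change over all 3. Replicate 3 lies with the others for high endothelial venule genes at -0.317 and apart from them for small respiratory chain subunits at -0.364.

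Day 3 was then set against day 2, the group nearest in time, which tests where the third day differs from the second. The PBS samples are not part of that contrast, but they enter the shared estimate of spread and the filter. On array A 32 probe sets were called, all of them lower at day 3 (0.262% of those tested), and on array B 0. An unadjusted p under 0.05 in limma was reached by 209 on array B (1.67%) and 932 on array A (7.62%). The array B share is below the 0.05 that would be reached with no difference. Of the genes called against PBS, Glycam1, Mfge8, Cxcl13, Madcam1, Il22ra2, Dsc3 and Lum were not called against day 2. Glycam1 was at -0.47 against day 2 (limma adjusted p = 0.111), Mfge8 at -0.17 (adjusted p = 0.772), Cxcl13 at -0.16, Madcam1 at -0.14, Il22ra2 at -0.08 and Dsc3 on array B at 0.04, and Lum was at 0.33 (adjusted p = 0.215). The comparisons with PBS and with day 2 share the day 3 samples.

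The 6 largest falls against day 2 among genes with 1 symbol were in Ogt, Septin1, Mgll, Foxp1, Igfbp4 and Igk. Ogt read 894.5, 996.2 and 846.4 at day 2, the level of the PBS samples, before its fall at day 3 (-0.97 against day 2, SE 0.131, limma adjusted p = 0.00175, and 0.0193 without replicate 3). Septin1 read 983.6, 968.3 and 945.5 at day 2 (-0.86, SE 0.0784, adjusted p = 2.11e-05) and Foxp1 366.3, 398.2 and 425.3 (-0.77, SE 0.0832, adjusted p = 0.000154). In all 3 the day 2 and day 3 values did not overlap, which their choice as the largest falls by itself favours. The other 4 probe sets of Ogt stood between 0.09 and 0.31 against day 2.

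Mgll, a lipase that breaks down monoglycerides and stands in the adipocyte list, read 839.5, 935.3 and 1143 at day 2 and 578, 614.9 and 494.9 at day 3 (-0.78, SE 0.159, limma adjusted p = 0.0406), with other probe sets at -0.44 and -0.06. Its call ended without replicate 3 (adjusted p = 0.227), and without replicate 1 or 2 (0.132 and 0.0715). Igfbp4, a binding protein for insulin-like growth factors, read 1133, 1032 and 1145 in PBS samples, 1572, 1517 and 1790 at day 2 and 1015, 1033 and 970.8 at day 3. Day 2 was thus the high group, and the fall to day 3 (-0.69, SE 0.107, adjusted p = 0.00584) ended near the PBS level. Its 5 other probe sets stood between -0.31 and -0.17 and did not pass. A probe set for the immunoglobulin kappa locus (Igk), whose probe sets read different rearranged chains, read 1176, 1434 and 1568 at day 2 and 833.6, 964.4 and 888.3 at day 3 (-0.63, SE 0.101, adjusted p = 0.00765), and another stood at 0.30. With 1 day 2 or day 3 sample left out, the adjusted p reached at most 0.0772 for Igfbp4 and 0.0855 for Igk, and both calls remained without replicate 3 (0.0377 for each).

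Over the 32 called probe sets, the median change from PBS was -0.388 at day 3 and 0.077 at day 2, and 28 of the 32 lay above PBS at day 2. These probe sets were chosen for being lower at day 3 than at day 2, which by itself favours high day 2 and low day 3 values, so the pattern is a description only. Without replicate 3, 15 probe sets were called against day 2 (0.123%), all lower, with Ogt, Septin1, Foxp1, Igfbp4 and Igk among them. Means over the whole course set the genes side by side. Glycam1 averaged 5807 in PBS samples and 4619, 2688, 1954, 2233 and 3496 after 1, 2, 3, 27 and 35 days, with its lowest mean at day 3. Mfge8 averaged 3449, 2228, 1548, 1380, 2261 and 3354 in the same order, again lowest at day 3. On its 1 called probe set, Ogt averaged 904.8, 879.4, 912.4, 468.6, 384.2 and 352. Septin1 averaged 886.3, 907.3, 965.8, 532.4, 476.1 and 498.4. These last 2 probe sets were level until day 2 and low from day 3 on. The 4 other tested probe sets of Ogt were not called against PBS.

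**Figure D5:**
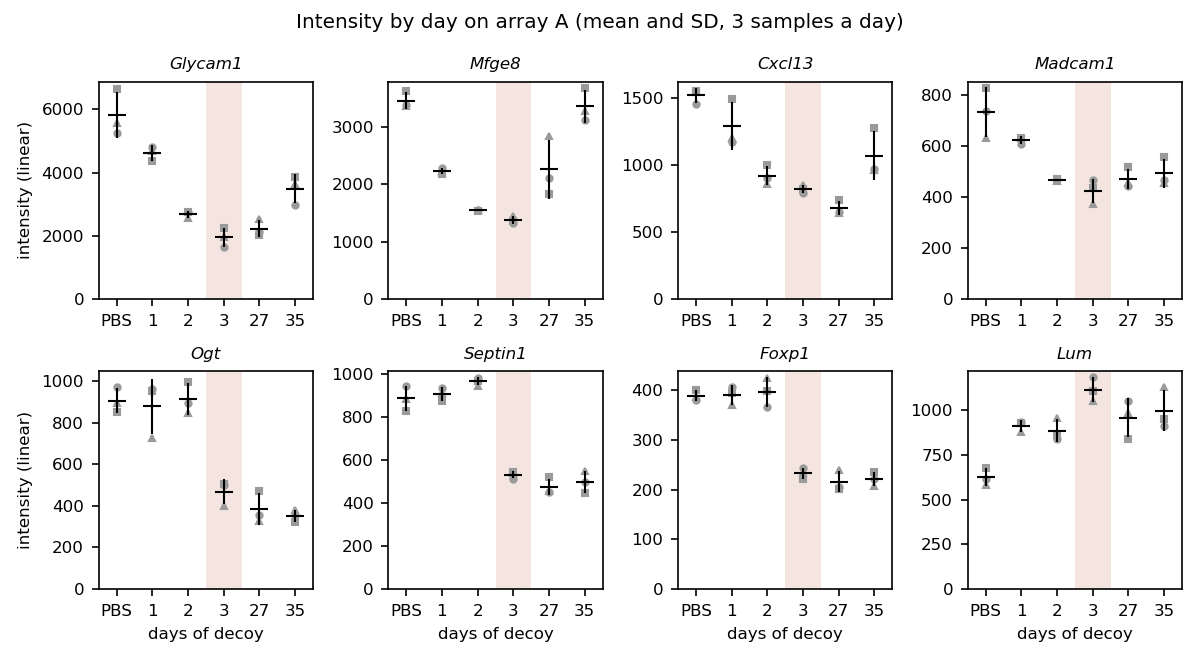
Mean intensity of 8 genes by days of treatment, with day 0 the PBS group, bars of 1 SD (n = 3), grey symbols for the samples and day 3 shaded. Vertical axes are linear, in intensity units, and days are evenly spaced, not to scale. Glycam1 and Mfge8 decline over the first days to 1954 and 1380 at day 3. The probe sets shown for Ogt, Septin1 and Foxp1 stay level to day 2 and step down at day 3. Each panel is 1 probe set, and 4 other tested probe sets of Ogt and 6 of Foxp1 were not called against PBS.

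Against day 27, the first late group, 0 probe sets passed on either array in limma. An unadjusted p under 0.05 was reached by 1143 on array A (9.35%) and 256 on array B (2.05%). With no difference at all, a share near 0.05 would reach it, so the array B count is no sign of differences. The number of calls changed with replicate 3. Without it 38 probe sets on array A were called (0.311%), 36 higher at day 3 (0.294%) and 2 lower (0.0164%). Mfge8 was 1 of the 2 lower, at -0.73 with an adjusted p of 0.0191, against -0.69 and 0.0534 with all samples. The other was a probe set of Igha, the heavy chain of immunoglobulin A, which read 7075, 7079 and 9734 in day 3 replicates 1, 2 and 3 and 10230, 9837 and 9801 at day 27, so that replicate 3 lay near the day 27 samples. Mgp, higher at day 3 by 0.80 without replicate 3 (limma adjusted p = 0.011), averaged 1551 at day 27. Cox6c, a small subunit of cytochrome oxidase chosen after its values were seen, read 1068, 1132 and 726.2 in day 3 replicates 1, 2 and 3 and 768.2, 814.2 and 628.3 at day 27. Replicate 3 fell within the day 27 range while replicates 1 and 2 lay above it, and without replicate 3 the difference was 0.59 (adjusted p = 0.0242).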

How the data were processed

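RNA of mouse mesenteric lymph node was measured on Affymetrix arrays A and B, 18 of each, and all 36 sample columns were used. The authors deposited 1 linear intensity per probe set and array. No source used here says how it was computed, background-corrected or scaled. A floor was set at each table's 20th percentile (an intensity of 122.6 for array A and 76.57 for array B) and the deposited values were taken to log2. Probe sets were tested if 3 or more of the 18 arrays exceeded the median of the table (286.7 and 157.9), with 64 control probe sets left out of each. This kept 12231 of 22626 probe sets on array A and 12516 of 22511 on array B. Each table was fitted alone with limma 3.58.1 in R 4.3.3 (lmFit, eBayes with trend), all 6 groups in 1 fit, two-sided, with Benjamini-Hochberg adjustment within table and contrast and calls at an adjusted p of 0.05. A change described without a sample left out comes from that fit, and one without a sample from the same fit repeated. The number of arrays limits the precision.

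Genes were named from the platform annotation, updated to RefSeq GRCm38.p6, where a probe set has 1 symbol: 20380 on array A and 14661 on array B (691 and 245 had several, 1555 and 7605 none). In lists the brightest tested probe set stands for a gene, array A preferred. Named genes are the calls without overlap that changed most (on array A up to 15 rises and 15 falls, on array B up to 6 of each), up to 6 called members per list, any member of the lymphotoxin, follicular dendritic cell, venule and chemokine lists, the called probe sets in which replicate 3 deviated most, and the 6 largest calls against day 2 or day 27. The members, lists and tests were chosen with earlier results of these data known. The procedure was tested on simulated data. Promoters came from RefSeq. Alternatives changed the scaling, floor, filter, variance trend, weights, replicate block, groups fitted and samples left out.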

Additional observations from a re-analysis of the deposited data

Results flagged for a closer look

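The test of the difference between day 3 and day 2 singled out 32 probe sets on array A (limma, adjusted p under 0.05, n = 3 in each group). All were lower at day 3, and they were 0.262% of those tested. The 6 largest with 1 gene symbol were each lower in 3 of 3 day 3 samples than in any day 2 sample. Their choice as the largest falls by itself favours such a gap, which is a description only. The 6 were Ogt at -0.97 on the log2 scale, Septin1 at -0.86, Mgll at -0.78, Foxp1 at -0.77, Igfbp4 at -0.69 and Igk at -0.63. Mgll and Igfbp4 had not passed against PBS, where they stood at -0.60 and -0.13. The call of Mgll ended without day 3 replicate 3 (adjusted p = 0.227), replicate 1 (0.132) or replicate 2 (0.0715). With 1 day 2 or day 3 sample left out, the adjusted p reached 0.0772 for Igfbp4 and 0.0855 for Igk. The other probe sets of Ogt stood between 0.09 and 0.31 against day 2, and another of Igk at 0.30. Foxp1 had a second called probe set at -0.49, and its others stood between -0.25 and 0.05.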

How the results depend on the processing

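Against PBS, the 68 calls on array A became 224 with array weights, 29 with only the groups compared and 16 to 31 with 1 of the 6 samples left out, and 63 without the 3 arrays of lowest weight, an alternative chosen after seeing the data. The 10 on array B became 3 with no filter, 21 with array weights and 2 to 5 with 1 sample left out. Of the calls on array A, 25 remained without replicate 3, 26 when only the groups compared were fitted and 33 after quantile normalization, and on array B 4, 7 and 5. Against day 2, the 32 on array A became 21 after quantile normalization, 254 with array weights (52 of them higher), 8 with only the groups compared, 7 to 20 with 1 sample left out and 37 without the 3 arrays of lowest weight, and the 0 on array B became 3 with array weights. Against day 27, the 0 on array A became 2 after quantile normalization, 4 at a common median, 1 with 9 arrays above the median, 722 with array weights (495 higher), 0 to 38 with 1 sample left out (5 without day 27 replicate 2 and 38 without day 3 replicate 3) and 438 without the 3 arrays of lowest weight. The cause was not tested, though each omission leaves fewer samples. With the replicate number as a block the counts against PBS were 65 and 68, against day 2 28 and 2, and against day 27 1 on array B. Deviations of same-numbered PBS and day 3 samples correlated at 0.132, 0.0189 and 0.163 on array A and 0.407, -0.408 and 0.072 on array B. With so few pairs, these values cannot decide whether samples of the same number belong together, and this was not tested. Changes of named genes were on the same side of the threshold in 435 repeats, lost their call in 222 and reversed in 0. With groups that do not overlap, leaving out 1 sample could not reverse a change. Altering the filter, the variance trend or the groups fitted keeps the same difference, so the absence of reversals there was fixed in advance. List medians moved by more than the replicate spread in 6 repeats and by less in 78. After quantile normalization or at a common median, the median change of all probe sets lay at most 0.0247 from 0.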
